A study of Mus musculus with 6 samples.

Results

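The 9 genes described here are Ier2, Ier3, Ier5, Zfp36, Zfp36l1, Zfp36l2, Zc3h12a, Nr4a1 and Myc. They were chosen by name, as immediate-early genes and regulators of mRNA decay, out of 56092 gene symbols in the deposited count table. All 9 were found in the table, and all 9 were among the 13528 genes that passed the filter on low counts. RNA-seq libraries of RAW264.7 cells, a mouse macrophage line, were compared between a control shRNA (shNC, n = 3) and an shRNA against Trem2 (shTrem2, n = 3). Cells of both groups carried a lentiviral vector, had been selected with puromycin as stable lines, were given 20 ng/mL of IL-4 over 24 hours, and were then kept for 24 hours with debris of the renal tubular line TCMK-1. The study prepared stable lines with more than 1 Trem2 shRNA, and the labels do not say which of them these libraries carry. No library without IL-4 or without debris was among the 6. The labels number the replicates but do not say that they came from separate cultures, so the p-values measure the spread between these libraries, which may be technical.

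Immediate-early genes are switched on by existing transcription factors within minutes of a stimulus, and their mRNAs are as a rule short-lived. Many of these mRNAs carry AU-rich elements in the 3′ untranslated region. Proteins of the ZFP36 family (Zfp36, also called tristetraprolin, Zfp36l1 and Zfp36l2) bind such elements through paired CCCH zinc fingers and recruit the CCR4-NOT deadenylase. Regnase-1, encoded by Zc3h12a, is an endonuclease that cuts stem-loops in inflammatory mRNAs. In macrophages both systems are known for limiting the output of cytokine mRNAs such as Tnf. Nr4a1 is an orphan nuclear receptor and Myc a growth-promoting transcription factor, and both are induced as immediate-early genes.

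A 7-letter AU-rich sequence of the kind that the ZFP36 family binds occurs in the transcripts of 4 of the 9 genes. These sites are shown because the genes that make the binding proteins are themselves among them. AU-rich sequence shorter than these 7 letters was not searched. The 7 letters TATTTAT, with T for the U of RNA, were searched on the sense strand of the 3′ untranslated region of the longest coding transcript with an annotated stop codon in GENCODE M21 (mouse genome build GRCm38). Ier3-201 had 4 matches, and Zfp36-201, Zfp36l1-201 and Zfp36l2-201 had 3 each, while the transcripts of Ier2, Ier5, Zc3h12a, Nr4a1 and Myc had 0. The longer TTATTTATT occurred 0 times in Ier3-201 and 1 time each in Zfp36-201, Zfp36l1-201 and Zfp36l2-201, and in 7.6% of the regions of all genes. In the windows below, written 5′ to 3′ as DNA, capitals mark TATTTAT.
Ier3: ctaattaaTATTTATgTATTTATgtatatc
Zfp36: gggcccttTATTTATgacgacttTATTTAT
Zfp36l1: tcaaaacgTATTTATtgccaaactatgctt
Zfp36l2: atttaactTATTTATtatcttgtgaaaagt
Each window lies in the last of 2 exons, in the 3′ untranslated region. The Ier3 window is at chr17:35822484-35822513 on the plus strand. On the minus strand are the windows of Zfp36 at chr7:28376962-28376991, of Zfp36l1 at chr12:80108418-80108447 and of Zfp36l2 at chr17:84184910-84184939. Of the 3′ untranslated regions of 21153 genes, 27.5% held the 7 letters. Among 2121 regions within 20% of the length of that of Ier3 (613 bases), 15.7% held them and 0.566% held 4 or more. For Zfp36 (774 bases), 1.19% of 2360 regions of similar length held 3 or more, and for Zfp36l1 (1835 bases) and Zfp36l2 (1822 bases) the share was 4.15% of 2893. A match is a description of these letters, and binding was not measured.

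In the GENCODE M21 annotation, genes on the plus strand were Ier3 (ENSMUSG00000003541) at chr17:35821684-35822923, Myc (ENSMUSG00000022346) at chr15:61985391-61990374 and Nr4a1 (ENSMUSG00000023034) at chr15:101254269-101274795. Genes on the minus strand were Ier2 (ENSMUSG00000053560) at chr8:84661331-84662852, Ier5 (ENSMUSG00000056708) at chr1:155096361-155099636, Zc3h12a (ENSMUSG00000042677) at chr4:125118423-125127840, Zfp36 (ENSMUSG00000044786) at chr7:28376784-28380253, Zfp36l1 (ENSMUSG00000021127) at chr12:80107754-80113013 and Zfp36l2 (ENSMUSG00000045817) at chr17:84183931-84187947. Exons of Zfp36, Zfp36l1 and Zfp36l2 overlap exons of genes on the opposite strand, Gm44710, Gm26669 and AC132455.1, respectively.

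Between shNC and shTrem2, 2 of the 9 genes rose, 5 fell and 2 did not pass the test. Ier2 and Zfp36l2 were higher in shTrem2, and Zc3h12a, Ier3, Ier5, Zfp36l1 and, by a small amount, Zfp36 were lower. A DEG is here a gene with an FDR under 0.05 and a fold change over 1.5. Of the 9 genes, 6 were DEGs, of which 2 were higher and 4 lower. Over all 13528 genes tested, 21.8% were DEGs, 9.46% higher and 12.4% lower, and 57.4% had an FDR under 0.05 (28.8% higher and 28.6% lower), against 7 of the 9 here (2 higher and 5 lower). The values of the 2 groups did not overlap for 8 of the 9 genes and for 63.8% of all genes tested, so that separated groups alone were common in these libraries. The median log2 fold change of the 9 genes was -0.18, against 3.00e-05 over all genes tested. In bulk RNA, fewer cells with a transcript and less of it per cell cannot be told apart.

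**Figure D1:**
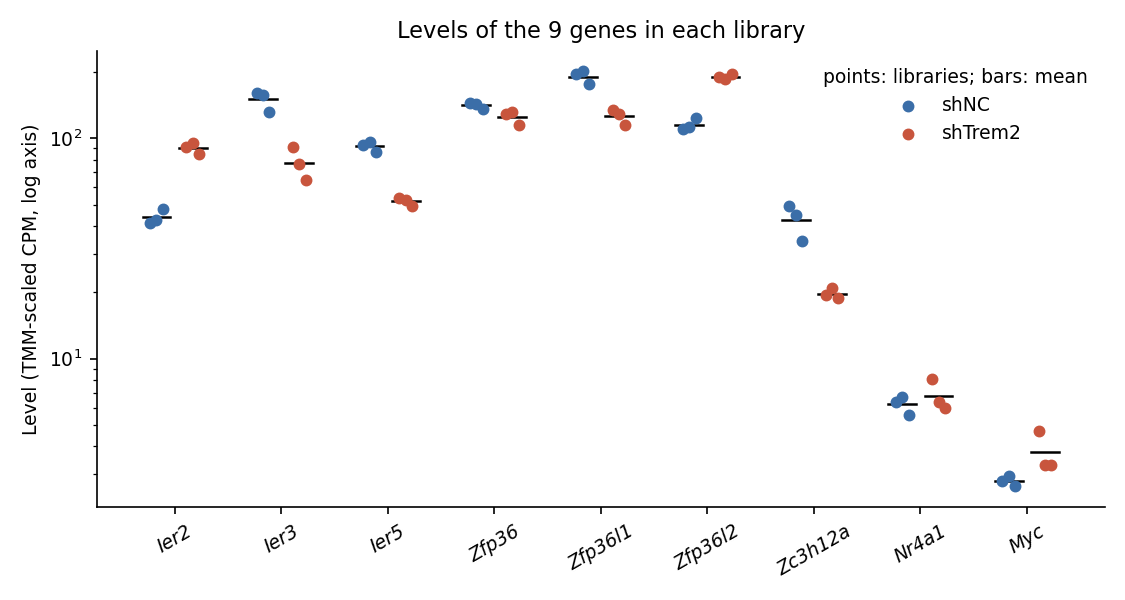
Levels of the 9 genes in each of the 6 libraries, in TMM-scaled CPM, on a log axis. Points are libraries of shNC (blue) and shTrem2 (red), and black bars are group means of 3 libraries. Only for Nr4a1 do the points of the 2 groups overlap.

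The libraries held between 16054486 and 19835186 estimated counts. Trem2, the targeted gene, was at 114, 122 and 144 CPM (counts relative to library size, here scaled by TMM) in shNC and at 64.7, 63.1 and 80.1 CPM in shTrem2, and was lower in all 3 shTrem2 libraries. In FPKM the gap was wider, with 152, 174 and 208 FPKM against 40.1, 38.6 and 46.4 FPKM, and the reason for the difference between the tables was not tested. With 1 knockdown group, an effect of the knockdown and a difference between the stable lines cannot be told apart. Of 10 macrophage markers, 9 were detected above 3 counts, and their summed level ranged from 5578 to 6573 CPM in shNC and from 10675 to 12070 CPM in shTrem2. Members went both ways, since Lyz2 rose from a mean of 2802 to 7357 CPM and Csf1r from 1058 to 1788 CPM, while Itgam fell from 466 to 270.3 CPM and Adgre1 from 126 to 85.4 CPM. Of 9 markers of IL-4-treated macrophages, Retnla, Chil3 and Ccl24 had 0 counts in every library and Arg1, which defines the cells in the study, had at most 0.157 CPM. The summed level of that list was between 58.7 and 63.6 CPM in shNC and between 16.8 and 21.7 CPM in shTrem2. That fall came from Cish alone, which went from a mean of 58.1 to 11.7 CPM. Mrc1 rose from 0.472 to 3.27 CPM and Tfec from 0.207 to 1.18 CPM. Both passed the filter on low counts through shTrem2 alone and so had to be higher. Socs1, at 3.01 and 3.15 CPM, did not pass the test (edgeR adjusted p = 0.819). Of 15 tubular epithelial markers, 7, among them Epcam, Cdh1 and Krt8, had 0 counts throughout and the list summed to at most 1.49 CPM in shNC and 3.03 CPM in shTrem2. Aqp1 was the 1 member that passed the filter on low counts, through shTrem2 alone, and its mean went from 0.451 CPM in shNC to 2.20 CPM in shTrem2. The part of these markers in the results below was not tested.

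The 3 Ier genes moved in different directions. Ier2 encodes a nuclear protein of the immediate-early response. The shNC libraries held 41.2, 42.8 and 47.8 CPM of it (replicates 1, 2 and 3, the order used throughout), against 91.8, 94.7 and 84.5 CPM in the shTrem2 libraries. Every shTrem2 library lay well above every shNC library, and the gap exceeded the spread of either group. On the log2 scale it rose by 1.04 (SE 0.068), which is 2.05-fold, and the Benjamini-Hochberg adjusted p of the quasi-likelihood test in edgeR was 3.00e-08.

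Ier3, also known as IEX-1, encodes an immediate-early protein that affects cell survival. Its level was 161, 158 and 132 CPM in shNC and 91.2, 76.5 and 64.9 CPM in shTrem2. The shTrem2 values were all lower, although shNC replicate 3 and shTrem2 replicate 1 came nearest to each other. Its log2 fold change was -0.95 (SE 0.10, edgeR adjusted p = 2.99e-06), which corresponds to a level 1.94-fold lower.

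Ier5, an immediate-early gene known as a cofactor of the heat shock factor HSF1, was at 93.5, 96.4 and 86.3 CPM in shNC and at 53.7, 52.4 and 49.2 CPM in shTrem2. The replicates were close together in both groups and did not overlap. Its log2 fold change was -0.83 (SE 0.060, edgeR adjusted p = 8.29e-08).

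Ier2 and Ier3 were also compared within each library, where depth cancels. On the FPKM scale, which is per length, the log2 ratio of Ier2 to Ier3 was -2.54, -2.46 and -2.04 in shNC and -0.56, -0.26 and -0.20 in shTrem2. Ier3 thus stayed the more abundant transcript in all 6 libraries, by less in shTrem2. The ratio differed by 2.00 on the log2 scale (exact two-sided permutation test p = 0.1, the smallest that 3 libraries against 3 allow). The pair was chosen with earlier results of these data known. Ier2 rose and Ier3 fell in these same libraries, so the p-value adds no separate evidence. The log2 ratio of Ier5 to Ier3 was -2.58 ± 0.088 in shNC and -2.44 ± 0.17 in shTrem2 (SD, n = 3), a difference of 0.14 (exact two-sided permutation test p = 0.3). Summed over the 3 genes, FPKM was 255 ± 20.1 in shNC and 185 ± 18.3 in shTrem2 (SD, n = 3).

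Within the ZFP36 family the 3 paralogs moved apart. Zfp36, the founding member, was at 145, 143 and 135 CPM in shNC and at 128, 131 and 114 CPM in shTrem2. The groups lay next to each other without overlap. The log2 fold change was -0.18 (SE 0.057, edgeR adjusted p = 0.0154), which is 1.13-fold and does not reach the 1.5-fold needed for a DEG.

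Zfp36l1 was measured at 195, 201 and 176 CPM in shNC and at 134, 129 and 115 CPM in shTrem2. All shTrem2 libraries were lower, and the difference exceeded the spread in each group. For Zfp36l1 the log2 fold change was -0.60 (SE 0.063, edgeR adjusted p = 2.78e-06), a 1.51-fold fall, close to the threshold of 1.5. Without shNC replicate 2 it was -0.57 and without shTrem2 replicate 3 it was -0.55, and in both cases Zfp36l1 was no longer a DEG, although its FDR stayed under 0.05.

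Zfp36l2 moved the other way, from 109.9, 112 and 123 CPM in shNC to 189.6, 185 and 196 CPM in shTrem2. The 3 shTrem2 values were close together and far above the shNC values. Its log2 fold change was 0.72 (SE 0.052, edgeR adjusted p = 7.36e-08), a rise of 1.65-fold.

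On the FPKM scale, levels of the paralogs can be set side by side. The sum over the family was 172, 173 and 162 FPKM in shNC and 161, 161 and 152 FPKM in shTrem2, and the groups lay next to each other without overlap. Zfp36l1 contributed the largest share in shNC, 42.4% ± 1.5 against 29.4% ± 1.3 in shTrem2 (SD, n = 3). Zfp36l2 contributed 21.3% ± 2.0 in shNC and was the largest contributor in shTrem2, with 36.9% ± 2.3. The share of Zfp36 was 36.3% ± 0.67 in shNC and 33.7% ± 1.3 in shTrem2, a difference of -2.59 percentage points. For each share the groups did not overlap (exact two-sided permutation test p = 0.1 each, the smallest possible). The shares come from the same libraries as the changes of the single genes and are not separate evidence. The log2 ratio of Zfp36l2 to Zfp36l1 was below 0 in all shNC libraries, between -1.11 and -0.78, and above 0 in all shTrem2 libraries, between 0.24 and 0.50.

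**Figure D2:**
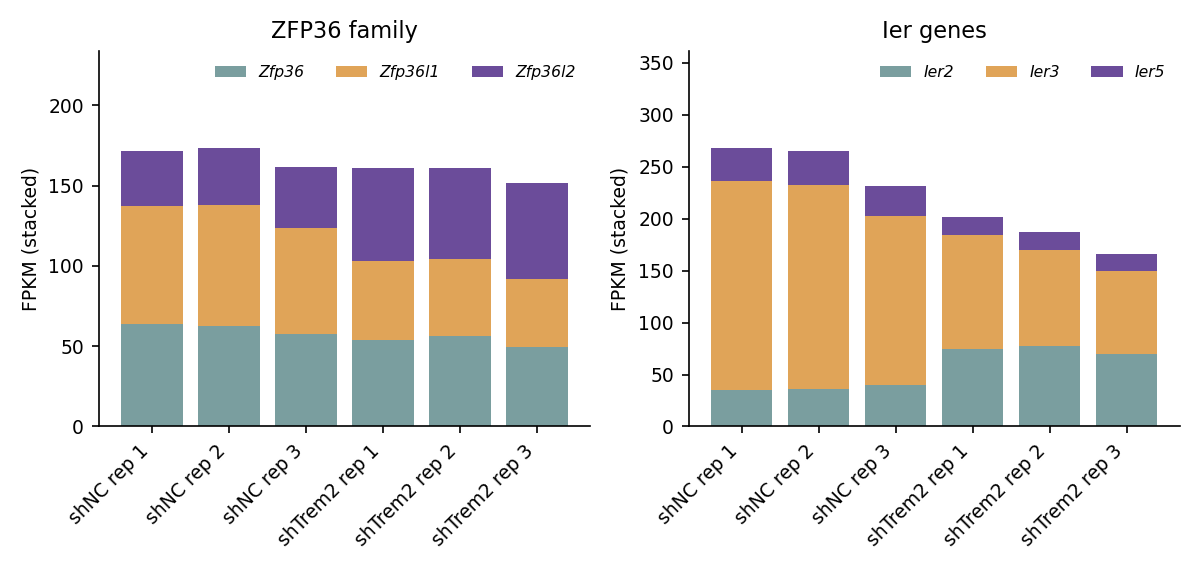
FPKM of the 3 ZFP36 family genes (left) and the 3 Ier genes (right) in each library, stacked so that the height of a bar is the sum. In the left panel the Zfp36l2 segment is larger in every shTrem2 library than in any shNC library while the sums stay between 152 and 173 FPKM, and in the right panel Ier3 shrinks and Ier2 grows.

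Zc3h12a, which encodes Regnase-1, had the largest log2 fold change of the 9 genes in size. It was at 49.0, 44.8 and 34.1 CPM in shNC and at 19.5, 20.9 and 18.8 CPM in shTrem2. The shNC libraries varied more than the shTrem2 libraries, and their lowest value was still far above the highest in shTrem2. The log2 fold change was -1.11 (SE 0.11, edgeR adjusted p = 1.84e-06), a 2.15-fold fall. Of its paralogs, Zc3h12c also fell, from 22.2 ± 3.76 to 9.70 ± 0.50 FPKM (SD, n = 3; log2 fold change -1.16, edgeR adjusted p = 2.52e-07). The paralog Zc3h12d was near 1 FPKM in both groups, at 1.07 ± 0.10 and 0.97 ± 0.25, and did not pass the test (edgeR adjusted p = 0.671). Zc3h12b was not tested.

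Nr4a1 was low, with between 101 and 155 counts per library. Its level was 6.39, 6.70 and 5.55 CPM in shNC and 8.08, 6.37 and 5.97 CPM in shTrem2. Only shTrem2 replicate 1 stood above all shNC libraries, and the other values of the groups were mixed. The log2 fold change was 0.13 (SE 0.16, edgeR adjusted p = 0.505), and an interval of 2 SE on either side ran from -0.19 to 0.45, so a change of the size seen in Ier5 or Ier3 lay outside it. Its paralog Nr4a2 was at 1.10 ± 0.31 FPKM in shNC and 1.10 ± 0.27 FPKM in shTrem2 (SD, n = 3; edgeR adjusted p = 0.732). Nr4a3 had 19, 15 and 6 counts in shNC and 2, 4 and 1 counts in shTrem2, and did not pass the filter. It was a DEG that fell without the filter and without shNC replicate 3 or shTrem2 replicate 1, 2 or 3. In those fits with a library left out, Nr4a3 passed the filter through shNC alone and so had to be lower.

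Myc was the lowest of the 9, with between 45 and 90 counts per library. It was at 2.79, 2.94 and 2.64 CPM in shNC and at 4.69, 3.29 and 3.29 CPM in shTrem2. The shTrem2 values were all higher, with replicate 1 well above the other two. The log2 fold change of 0.43 (SE 0.21) did not pass the test (edgeR adjusted p = 0.104), and the interval of 2 SE reached from -4.48e-04 to 0.86. The call depended on the scale. An offset for effective length gave 0.63 (edgeR adjusted p = 0.0478) and the deposited FPKM values with a pseudocount of 0.1 gave 0.59 (limma adjusted p = 0.0407). Without shTrem2 replicate 1 the log2 fold change was 0.24 (edgeR adjusted p = 0.407). Over all settings the adjusted p ranged from 0.0340 to 0.407.

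The count table lists transcripts without names, and for Myc it holds 7 rows. A single row went from 0, 0 and 0.49 estimated counts in shNC to 32.2, 17.2 and 7.03 in shTrem2. Another pair of rows held identical values in all 6 libraries. At these counts the division between rows is uncertain, and which transcripts they stand for was not determined. Counts of Zfp36 were divided between 2 rows, with 53.0% and 47.0%. Nr4a1 had 4 rows, of which the largest held 50.4% and the next 45.4%. Zfp36l1 and Zc3h12a had at least 97.9% of their counts in 1 row, and Ier2, Ier3, Ier5 and Zfp36l2 had a single row.

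The paralog Mycn, in contrast to Myc, was abundant. It was at 260, 253 and 258 FPKM in shNC and at 328, 318 and 309 FPKM in shTrem2, which was between 123 and 179 times the FPKM of Myc in the same library. The groups did not overlap, and its log2 fold change was 0.33 (SE 0.044, edgeR adjusted p = 2.13e-05), below the fold threshold. Mycl was listed at 0 FPKM in all 6 libraries.

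**Figure D3:**
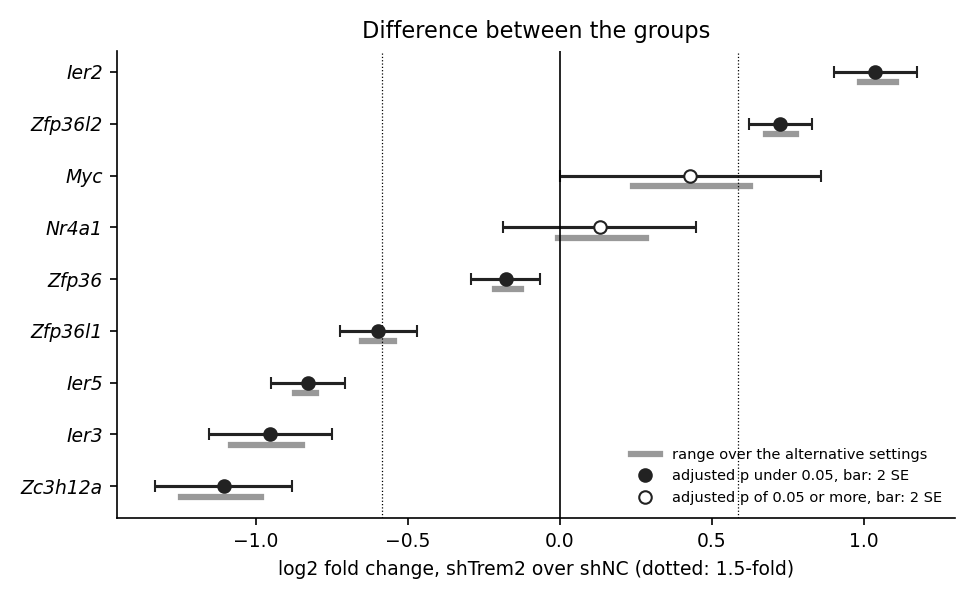
log2 fold change of the 9 genes, shTrem2 over shNC, from edgeR with bars of 2 SE, and below each, in grey, the range over the alternative settings. Filled points had an adjusted p under 0.05, and dotted lines mark a 1.5-fold change; Zfp36l1 lies on that line.

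Levels can be ordered between genes by FPKM. In shNC the order was Ier3 (187 ± 20.9 FPKM), Zfp36l1 (71.7 ± 5.20), Zfp36 (61.3 ± 3.09), Ier2 (36.7 ± 2.68), Zfp36l2 (35.9 ± 2.01), Ier5 (31.2 ± 1.90), Zc3h12a (19.6 ± 3.67), Nr4a1 (3.12 ± 0.40) and Myc (1.48 ± 0.046; SD, n = 3 each). Of these neighbours only Ier2 and Zfp36l2 overlapped between libraries. In shTrem2 Ier3 stayed first at 94.1 ± 15.1 FPKM, and Ier2 (73.8 ± 3.94) and Zfp36l2 (58.1 ± 1.71) came next, ahead of Zfp36 (53.1 ± 3.60) and Zfp36l1 (46.5 ± 3.53). No neighbours in the shTrem2 order overlapped.

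Of the 9 genes, 8 were also set beside the gene whose log2 CPM values over the 6 libraries lay nearest to their own, both taken relative to the shNC mean, among 9595 genes whose mean log2 CPM was 3 or more. For Zc3h12a this was its paralog Zc3h12c, at a distance of 0.117 (root of the summed squared differences). The nearest gene to Ier2 was mt-Nd1, a mitochondrially encoded subunit of complex I, at 0.0716 and with a log2 fold change of 1.06. For Ier3 it was Pdxp (0.185), for Zfp36 Phf21a (0.0432), for Zfp36l1 Entpd4 (0.0864) and for Zfp36l2 Casp8ap2 (0.0331). For Nr4a1 it was Dhrs1 (0.164) and for Myc Inpp5a (0.219). The likeness is a description over 6 libraries in 2 groups.

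Genes around these 9 were counted in 6 lists. Of 38 other immediate-early genes, 37 were tested, and 15 were DEGs, 5 higher and 10 lower in shTrem2. That is 40.5% of those tested, against 21.8% of all genes (9.46% higher and 12.4% lower). Their median log2 fold change was -0.17. Fosb (log2 fold change 6.24) and Fos (2.93), which encode AP-1 subunits, and Dusp1 (2.22), a phosphatase of MAP kinases, rose with Ier2. Plk2 (-4.49), a polo-like kinase, and Fosl1 (-2.20), another AP-1 subunit, fell as Ier3 and Ier5 did (edgeR adjusted p at most 2.41e-07 for these 5).

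The deadenylation and decay machinery includes the CCR4-NOT deadenylase, which the ZFP36 family recruits. Among 36 tested genes of this machinery, 0 were DEGs in edgeR, against 21.8% of all genes tested. In DESeq2 and in limma-voom 0 were DEGs as well. In edgeR 20 had an FDR under 0.05, 15 higher and 5 lower, a share of 55.6% against 57.4% of all genes tested. The log2 fold changes lay between -0.55 and 0.55, with a median of 0.097. Among the small rises were the CCR4-NOT catalytic subunits Cnot6 (0.45) and Cnot7 (0.33), the exonuclease Xrn1 (0.44) and, as the largest, Dcp1a (0.55). Cnot6l (-0.11) and Cnot8 (-0.037) did not pass the test (edgeR adjusted p = 0.0774 and 0.640). Among the falls were Pan2 (-0.55) and the decapping enzyme Dcp2 (-0.51). Of 22 tested genes among other regulators of mRNA stability, 2 were DEGs (9.09%, against 21.8% of all genes tested). They were Zc3h12c and Ptbp1 (0.68), a polypyrimidine tract binding protein. Malt1, the protease that cleaves Regnase-1, had a log2 fold change of -0.33 (edgeR adjusted p = 2.29e-04).

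Transcripts known to be bound by the ZFP36 family or Regnase-1 included several abundant mRNAs that fell. Of 20 listed, 11 were tested, and 8 of these (72.7%) were DEGs lower in shTrem2. Over all genes tested, 21.8% were DEGs and 12.4% were DEGs lower in shTrem2. Among the 8 are Il23a (mean 1.63 CPM in shNC and 0.432 CPM in shTrem2), Csf3 (1.47 and 0.156 CPM) and Lif (1.00 and 0.173 CPM), which passed the filter on low counts through shNC alone and so had to be lower. Over the 8 tested genes with at least 10 counts in every library, 5 were DEGs and the median log2 fold change was -1.19, against -1.88 over all 11. Ptgs2, which encodes cyclooxygenase-2, fell from 251 ± 64.7 to 22.2 ± 0.870 CPM, the chemokine Ccl3 from 819 ± 79.6 to 195 ± 21.5 CPM and Tnf from 320 ± 21.7 to 153 ± 15.1 CPM (SD, n = 3 each; log2 fold changes -3.50, -2.07 and -1.07). Ccl4 (-1.88) and Nfkbiz (-1.31) fell as well. Cxcl2 (0.073) and Vegfa (0.15) did not pass the test, and Tfrc rose by less than the fold threshold (0.48). The other 9, among them Il1b, Il6 and Il10, did not pass the filter. Of these, Ccl2 had 0, 1 and 2 counts in shNC and 9, 14 and 17 counts in shTrem2. It was a DEG that rose without the filter and without shNC replicate 1, 2 or 3 or shTrem2 replicate 1. In those fits with a library left out, Ccl2 passed the filter through shTrem2 alone and so had to be higher. Nfkbiz and Tfrc stand in 2 of the lists.

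Of 16 tested partners and paralogs of Myc, 1 was a DEG (6.25%, against 21.8% of all genes tested). This was Mxd1, a repressor that competes for Max, which fell from 13.5 ± 0.722 to 6.22 ± 0.584 CPM (log2 fold change -1.12, edgeR adjusted p = 3.49e-06). Max itself had a log2 fold change of 0.43 and rose below the fold threshold. All 30 genes of a list of MYC-responsive growth genes were tested, and 24 had an FDR under 0.05, 21 higher and 3 lower. Over all genes tested 57.4% had an FDR under 0.05, 28.8% higher. The DEGs were 6 (20.0%, against 21.8% of all genes), and the median log2 fold change was 0.27. The DEGs that rose included Shmt2 (0.82) and Nme1 (0.76), which act in serine and nucleotide metabolism, and Nop58 (0.65), a nucleolar protein. Odc1, the rate-limiting enzyme of polyamine synthesis, fell from 1572 ± 26.6 to 620 ± 50.1 CPM (SD, n = 3; log2 fold change -1.34), and the cyclin Ccnd2 fell by 2.32 on the log2 scale.

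**Figure D4:**
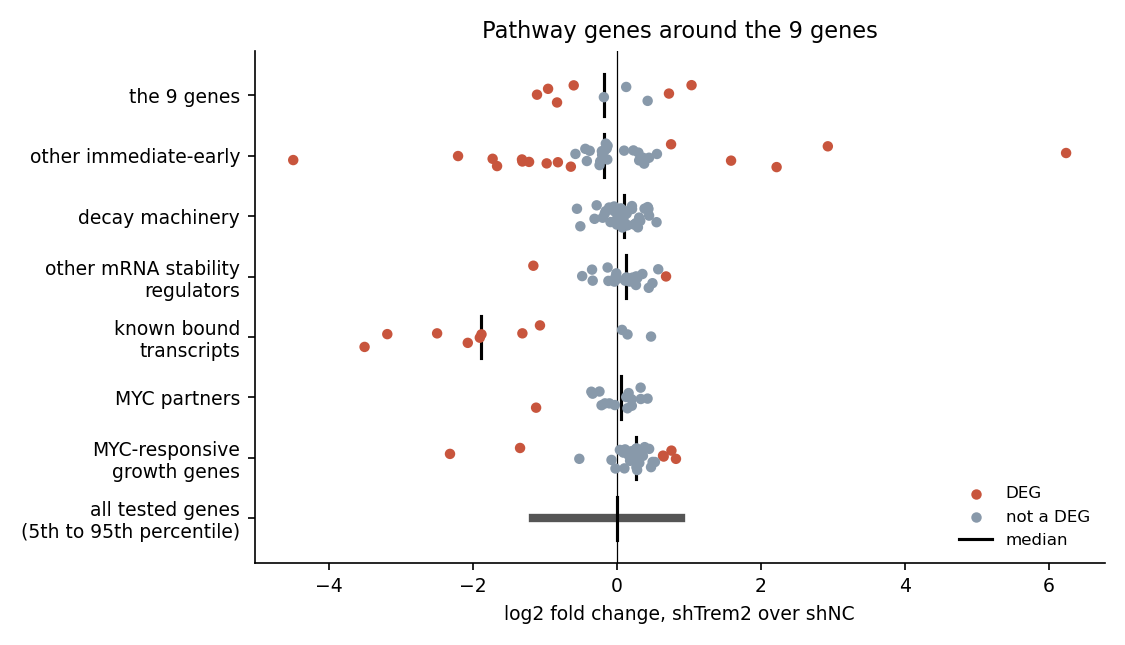
log2 fold change, shTrem2 over shNC, of the 9 genes and of the tested genes in 6 lists, with DEGs in red and medians as black lines. The grey bar spans the 5th to 95th percentile of all 13528 genes tested, -1.16 to 0.89, and the median of the 11 bound transcripts tested, -1.88, becomes -1.19 without the 3 that passed the filter through shNC alone.

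Promoter sequences were looked up for motifs of factors that act on immediate-early genes, and 6 of the 9 genes matched an entry in RefSeq (GRCm38.p6), from 250 bases before to 50 after the start site. The motifs searched on both strands were the CArG box (bound by serum response factor), TGANTCA (AP-1), TGACGTCA (CREB), the kappaB site and CACGTG (MYC and MAX), none of which overlapped another in these windows. Ier2, Zfp36l2 and Myc matched no entry, and their promoters were not searched. Shown are the promoters of Ier3, the gene with the highest FPKM, and Zfp36, the only one of the 6 with a CArG box, with matches in capitals.
Ier3: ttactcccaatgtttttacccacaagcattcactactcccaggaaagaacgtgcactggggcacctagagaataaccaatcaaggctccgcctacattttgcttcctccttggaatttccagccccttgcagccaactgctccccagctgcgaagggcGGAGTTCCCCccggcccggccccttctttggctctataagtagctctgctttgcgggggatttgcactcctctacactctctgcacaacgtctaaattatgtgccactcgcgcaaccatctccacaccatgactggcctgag
Zfp36: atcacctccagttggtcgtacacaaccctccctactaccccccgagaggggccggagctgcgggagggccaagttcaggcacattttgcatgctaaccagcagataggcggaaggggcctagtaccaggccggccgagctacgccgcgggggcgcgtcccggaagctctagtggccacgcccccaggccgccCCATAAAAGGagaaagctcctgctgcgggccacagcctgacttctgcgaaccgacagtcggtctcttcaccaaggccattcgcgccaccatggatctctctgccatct
The window of Ier3 is chr17:35821463-35821762 on the plus strand and holds 1 kappaB site, that of Zfp36 is chr7:28379179-28379478 on the minus strand and holds 1 CArG box. A kappaB site was also found for Nr4a1 and TGATTCA for Zfp36l1, while Ier5 and Zc3h12a held none of the motifs. Over 32851 promoter windows of the same length, 1.63% held a CArG box, 7.81% TGANTCA, 1.79% TGACGTCA, 8.46% a kappaB site and 7.15% CACGTG. Binding of these factors was not measured in these libraries.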

How the data were processed

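Poly(A) RNA of 3 shNC and 3 shTrem2 libraries was sequenced, and groups were taken from the sample titles. Upstream, per the study's methods, came fastp trimming, strand-aware HISAT2 alignment and StringTie assembly. The submitters' processing notes name GRCm39, and the counting tool is not given in the sources used here. The authors deposited estimated counts per transcript, of which 79.3% of nonzero values were not whole, and FPKM per gene, whose unit the file does not name. Its group means were not used. The floor set by a count of 0 was 3 counts per library (0.154 to 0.186 CPM, counting error only).

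Estimated counts were summed per symbol and rounded. Rows without a symbol (0.908% to 1.12% of counts) were left out. The test was edgeR 4.0.16 in R 4.3.3 (TMM, filterByExpr, glmQLFit, glmQLFTest, Benjamini-Hochberg), fitted over all genes and tested on simulated data. SE is the log2 fold change divided by the root of F. Alternatives were DESeq2 1.42.0, limma 3.58.1, other scalings, filters, thresholds, the replicate block and each library left out.

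The 9 genes, the lists and the ratio of Ier2 to Ier3 were chosen with earlier results of these data known. Named in the text are the 9 genes, Trem2, each one's nearest profile (that of Ier5 is not reported here) and, per list, up to 5 DEGs with the largest change and a mean log2 CPM of at least 1. Other genes were named after their values were seen. Coordinates and sequences are of GRCm38, not the build of the files. Without strand, Zfp36, Zfp36l1 and Zfp36l2 would overlap antisense genes.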

Additional observations from a re-analysis of the deposited data

How the results depend on the processing

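The direction of the log2 fold change and the side of the FDR threshold were the same under all 17 alternative settings for Ier2, Ier3, Ier5, Zfp36, Zfp36l1, Zfp36l2 and Zc3h12a. Nr4a1 reversed to -0.0069 without shTrem2 replicate 1 (range over libraries left out in turn -0.0069 to 0.21). Myc passed with the length offset (0.63), with log2(FPKM + 1) (0.41) and with log2(FPKM + 0.1) (0.59), and ranged from 0.24 to 0.52 with a library left out. The number of DEGs among the 9 was 2 with a fold change over 2, and among all genes it was 1339 with that threshold and 7763 without a fold threshold, against 2951. Without a fold threshold the lists held 28 (other immediate-early), 20 (decay machinery), 16 (other stability regulators), 10 (Myc partners) and 24 (MYC-responsive) genes. With a fold change over 2, other stability regulators held 1 and MYC-responsive genes 2. For the decay machinery, the 0 DEGs became 1 with library size only, 2 with the length offset, 1 with log2(FPKM + 1), 1 with log2(FPKM + 0.1) and 0 to 2 with a library left out. Other stability regulators held 4 with log2(FPKM + 0.1), and Myc partners 2 without the filter. Bound transcripts held 5 with at least 10 counts in every library, where fewer genes are tested. A DEG that rose, Ccl2, was added to them without the filter and in 4 of the 6 fits with a library left out. In those 4 fits Ccl2 passed the filter through shTrem2 alone and so had to be higher. Where not shown by construction, the cause was not tested. The replicate numbers did not pair the libraries (correlations of same-numbered deviations 0.0064, -0.0043 and 0.0067), and with the replicate block 6 of the 9 genes were DEGs, as without it. Depth limits Myc and Nr4a1 most.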

Other observations

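Tested genes were also counted by the number of TATTTAT matches in the 3′ untranslated region, as a description without a test. Of 7682 genes with 0 matches, 11.2% were DEGs lower in shTrem2 and 10.2% DEGs higher. Of 421 genes with 3 or more, 16.2% were lower and 9.26% higher, and the median log2 fold changes were 0.036 and -0.11. Regions with more matches were longer, with a median of 3403 bases against 883. Among regions of 1000 to 2000 bases, 25.0% of 68 genes with 3 or more matches were lower and 14.7% higher, against 9.50% and 9.92% of 1895 genes with 0. The median log2 fold changes of these groups lay close together, at -0.0155 and 0.0307. Zfp36l1, which fell, and Zfp36l2, which rose, are among the 68. The part of length and base composition in these shares was not tested.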
